A study of Arabidopsis thaliana with 6 samples.

Results

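The beta carbonic anhydrases of Arabidopsis thaliana are a family of 6 genes, CA1 to CA6, and all 6 were found by their AGI locus codes among the 28387 genes of the deposited table. The codes are AT3G01500 for CA1, AT5G14740 for CA2, AT1G23730 for CA3, AT1G70410 for CA4, AT4G33580 for CA5 and AT1G58180 for CA6. They were chosen by name, as a whole family, with earlier results of these data known. CA1 lies on chromosome 3, CA2 on chromosome 5, CA5 on chromosome 4, and CA3, CA4 and CA6 lie on chromosome 1. The reference gene table lists CA3 to CA6 under the symbols BCA3 to BCA6.

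Carbonic anhydrases are zinc enzymes that interconvert carbon dioxide and bicarbonate, and plants carry an alpha, a beta and a gamma family that are unrelated in sequence. In leaves the beta family holds the most abundant forms. CA1 is an enzyme of the chloroplast stroma that has also been described as a salicylic acid binding protein, CA2 and CA3 are cytosolic, CA4 is found at the plasma membrane, CA5 is directed to the chloroplast and CA6 to the mitochondrion. CA1 and CA4 act together in the closing of stomata at high carbon dioxide, and CA4 has been found to interact with an aquaporin of the PIP2 group.

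The study set leaves of atpip1;2-1, a T-DNA insertion mutant of the aquaporin gene PIP1;2, against leaves of the wild type N-60000. Each line had 3 arrays, each with total RNA of 5 pooled plants at 3 weeks of age, so that 15 plants stood behind a line. All plants were kept in a greenhouse with 12 h of light at 24 °C, nights at 20 °C, 60% relative humidity, a photon flux of 70 to 80 µmol per square metre and second and 370 µmol of carbon dioxide per mol of air. The mutant is a single insertion allele, and per the labels the arrays of a line are biological replicates. A value is an RMA (robust multi-array average) log2 expression value, so that a difference of 1 is a 2-fold difference. Levels of different genes were not ranked against each other, since each gene has its own probes.

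PIP1;2, a plasma membrane channel studied for the passage of water and carbon dioxide, was the check of the labels. It had log2 values of 5.16, 5.51 and 5.18 in atpip1;2-1 leaves and 8.73, 9.14 and 8.74 in wild type leaves, a log2 fold change of -3.59 (SE 0.18, limma adjusted p = 0.000148). Its probes' position relative to the insertion is unknown here. Array medians lay between 3.78 and 3.81 in the mutant and between 3.81 and 3.84 in the wild type. The 5 leaf mesophyll markers averaged 8.20 to 8.49 on the mutant arrays and 8.04 to 8.22 on the wild type arrays. LHCB1.1 among them read only 1.41, 2.56 and 3.02 in the mutant and 2.30, 2.18 and 2.28 in the wild type. Of the 5, CAB3, a light-harvesting gene with near-identical copies, had all mutant arrays higher, with a change of 0.86 (SE 0.20, limma adjusted p = 0.144), and its part in the values below was not tested. All 4 root markers and all 6 flower and seed markers had means under 3.80, the median of all genes' means. Replicate 3 of each line had the lowest array weights, 0.640 for the mutant array and 0.617 for the wild type array, and the other 4 arrays had weights above 1.

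None of the 6 genes passed the limma test at an adjusted p of 0.05, a threshold passed by 0.342% of all genes. CA6 had the largest measured difference of the family, with a higher mean in the mutant, and CA5 had a lower mean in the mutant. The means of CA2 and CA4 were higher as deposited and lower with array weights or with quantile normalization applied again. The arrays of the 2 lines did not overlap for CA5 and CA6, and they overlapped for CA1, CA2, CA3 and CA4. Over all genes, 18.5% had arrays that did not overlap. An unadjusted p under 0.05 was found for 1 of the 6 genes, CA6, and for 12.2% of all genes.

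**Figure D1:**
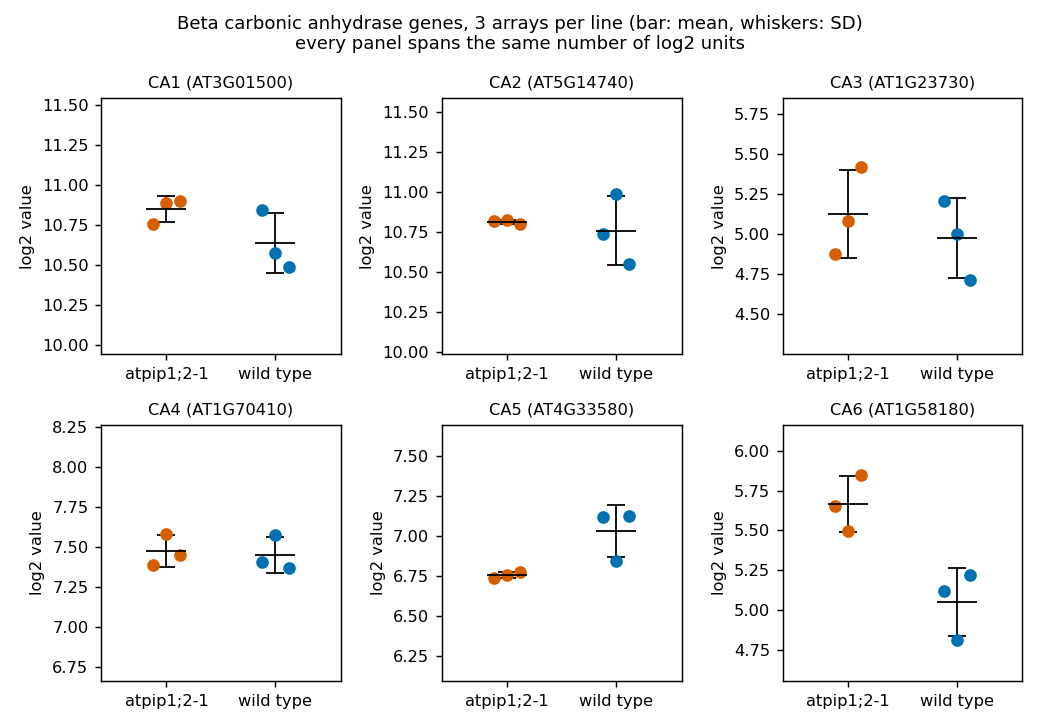
Log2 value of each beta carbonic anhydrase gene (vertical axis, the same span in each panel) on the 3 atpip1;2-1 arrays (left, orange) and the 3 wild type arrays (right, blue), with the mean as a bar and the SD as whiskers. The mutant points of CA6 all lie above the wild type points and those of CA5 all lie below, while the points of the other 4 genes overlap.

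CA1, the chloroplast enzyme, had log2 values of 10.76, 10.89 and 10.91 in atpip1;2-1 leaves and 10.85, 10.58 and 10.49 in wild type leaves. The mutant arrays 2 and 3 lay above every wild type array, and mutant array 1 lay below wild type array 1. The means were 10.85 ± 0.08 in the mutant and 10.64 ± 0.19 in the wild type (SD, n = 3 each), a log2 fold change of 0.21 (SE 0.16, limma adjusted p = 0.651). The 95% interval ran from -0.16 to 0.58, that is from 0.898-fold to 1.50-fold.

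CA5, the other chloroplast form, had 6.74, 6.76 and 6.78 in atpip1;2-1 leaves and 7.12, 6.85 and 7.13 in wild type leaves. All 3 mutant arrays lay below the lowest wild type array, by 0.07 at the nearest pair. The means were 6.76 ± 0.02 and 7.03 ± 0.16 in the mutant and the wild type (SD, n = 3 each), a log2 fold change of -0.27 (SE 0.16, limma adjusted p = 0.529). The 95% interval from -0.63 to 0.08 includes no difference. The SD of CA5 pooled over both lines was 0.114, and 90.2% of all genes had a larger one.

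CA2, a cytosolic enzyme, had 10.82, 10.82 and 10.80 in atpip1;2-1 leaves and 10.74, 10.99 and 10.55 in wild type leaves. The 3 mutant values lay inside the range of the wild type values. The log2 fold change was 0.05 (SE 0.17, limma adjusted p = 0.933), with a 95% interval from -0.32 to 0.43. A change of CA2 by more than 1.35-fold upward or 1.25-fold downward therefore lay outside the interval. The SD was 0.01 over the mutant arrays and 0.22 over the wild type arrays. With 3 arrays a line this difference in spread was not tested.

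CA3, also a cytosolic enzyme, had 4.88, 5.08 and 5.42 in atpip1;2-1 leaves and 5.21, 5.00 and 4.71 in wild type leaves. The groups overlapped over most of their range. CA3 had the widest spread between arrays of the 6 genes, with an SD of 0.27 in the mutant and 0.25 in the wild type, and the least precise change, 0.15 (SE 0.20, limma adjusted p = 0.817, 95% interval from -0.30 to 0.60). Without replicate 3 of both lines, the arrays with the lowest weights, the change of CA3 was -0.13.

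CA4, the plasma membrane form, had 7.39, 7.58 and 7.45 in atpip1;2-1 leaves and 7.40, 7.58 and 7.37 in wild type leaves. The 2 lines covered almost the same range. The log2 fold change was 0.02 (SE 0.16, limma adjusted p = 0.970), the smallest of the family. Its 95% interval ran from -0.33 to 0.37, so that changes beyond 1.30-fold upward or 1.25-fold downward lay outside it.

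CA6, the mitochondrial form, had 5.65, 5.50 and 5.85 in atpip1;2-1 leaves and 5.12, 4.82 and 5.22 in wild type leaves. Every mutant array lay above every wild type array, with a gap of 0.27 between the lowest mutant and the highest wild type value. The means were 5.67 ± 0.18 in the mutant and 5.05 ± 0.21 in the wild type (SD, n = 3 each), a log2 fold change of 0.61 (SE 0.18) or 1.53-fold. The 95% interval for CA6 taken by itself ran from 1.16-fold to 2.02-fold. The unadjusted p of limma was 0.00683 and the adjusted p was 0.224. A smaller unadjusted p was found for 3.05% of the 28387 genes and a larger absolute change for 5.21%. The exact two-sided permutation p was 0.1 for CA6 and for CA5, the smallest that 3 arrays against 3 allow, and lay between 0.2 and 0.7 for the other 4 genes.

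The largest unadjusted p among the 97 genes past the threshold was 0.000168. With the standard errors measured here, CA4 would have needed a 1.90-fold difference to reach that p, CA5 a 1.92-fold, CA1 a 1.97-fold, CA2 a 1.99-fold, CA6 a 2.09-fold and CA3 a 2.29-fold difference. These sizes follow from the spread of each gene and the threshold, and restate that none of the 6 passed.

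**Figure D2:**
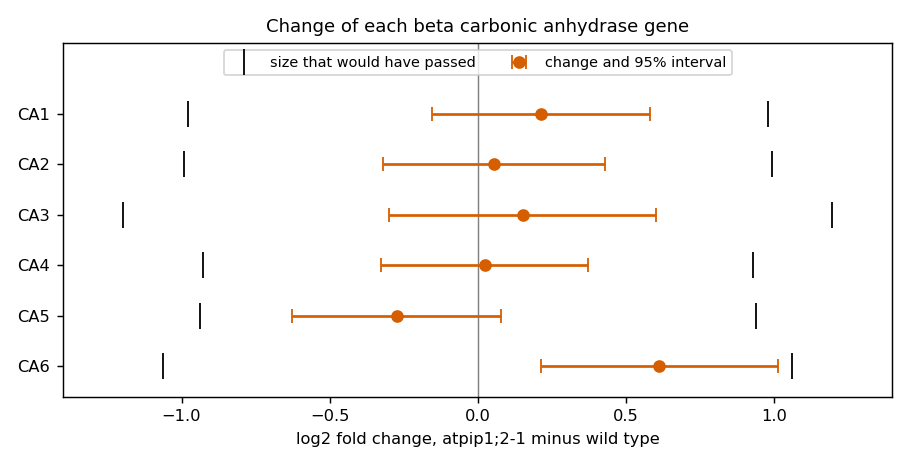
Log2 fold change of each beta carbonic anhydrase gene, atpip1;2-1 minus wild type (horizontal axis), with its 95% interval from limma in orange, and in black the size that would have passed the threshold at that gene's standard error. The interval of CA6 (0.21 to 1.01) excludes 0, those of the other 5 genes include it, and every point lies inside its black marks.

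Whether the members changed by different amounts was asked of the ratio of 2 members within each array, for all 15 pairs. The arrays of the 2 lines did not overlap for 4 of the 15 ratios: CA6 over CA5, CA6 over CA4, CA6 over CA2 and CA5 over CA1. For CA6 over CA5 this followed from the single genes, since all mutant arrays were higher for CA6 and lower for CA5. Over the ratios of the 6 genes to every other gene of the table, 25.1% did not overlap. The share was 60.0% for the ratios of CA6 to all other genes, so that its 3 of 5 ratios within the family lay at that background. For CA5 the share was 28.1%, and 2 of its 5 ratios within the family did not overlap.

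The ratio of the mitochondrial CA6 to the chloroplast CA5 differed most of the 15, and its interval below does not allow for that choice. Set to the wild type mean, the log2 ratio was 0.89, 0.71 and 1.05 on the atpip1;2-1 arrays and -0.02, -0.05 and 0.07 on the wild type arrays. Every mutant array was higher than every wild type array. That separation, and with it the exact permutation p, was fixed by the values of the single genes. The change of the ratio was 0.89 (SE 0.10, 95% interval from 0.60 to 1.18), with an exact permutation p of 0.1, or 0.375 after Benjamini-Hochberg adjustment over the 15 pairs, and no smaller exact p is possible with 3 arrays against 3.

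The ratio of the 2 chloroplast forms, CA5 over CA1, stood at -0.41, -0.52 and -0.52 on the atpip1;2-1 arrays and at -0.12, -0.12 and 0.24 on the wild type arrays, again set to the wild type mean. The mutant arrays were all lower, a change of -0.49 (SE 0.13, 95% interval from -0.84 to -0.13, exact permutation p = 0.1, adjusted 0.375). The intervals of the other 13 ratios included 0. For CA4 over CA2, the plasma membrane and cytosolic forms, the change was -0.03 (SE 0.09, 95% interval from -0.27 to 0.21), the narrowest interval of the 15.

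**Figure D3:**
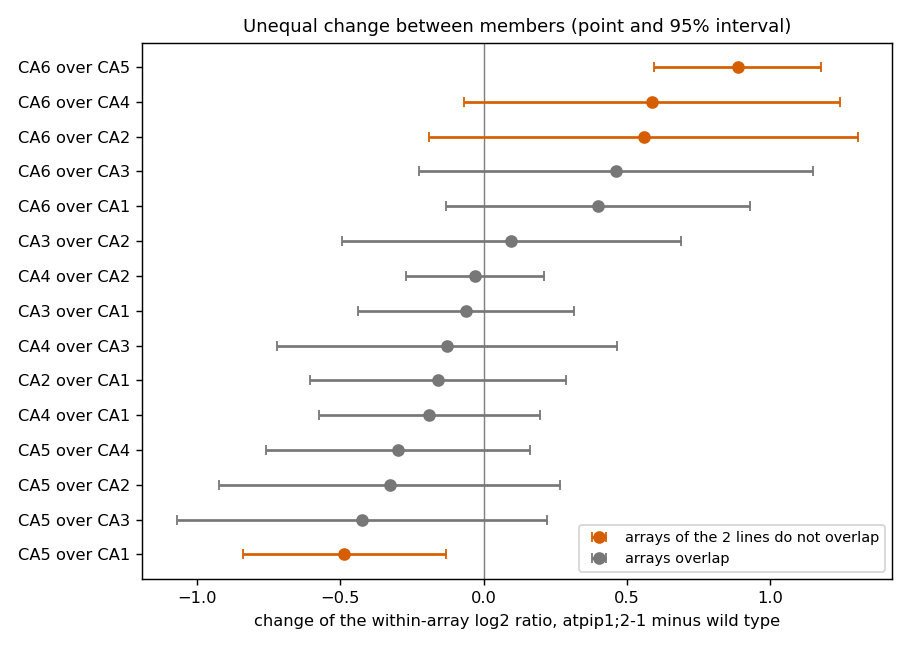
Change of the log2 ratio of 2 members within an array, atpip1;2-1 minus wild type (horizontal axis), for the 15 pairs, with 95% intervals from the spread of the 3 arrays of each line. Orange marks the 4 ratios whose arrays do not overlap between the lines, among which only CA6 over CA5 and CA5 over CA1 have intervals that exclude 0.

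The way the values moved over the 6 arrays was set side by side after each gene's own mean was taken off. CA2 and CA4 had the closest patterns within the family, with a root mean square difference of 0.088, although 260 other genes lay closer to CA2 than CA4 did. Both were above their means on array 2 of each line, while CA1, CA3, CA5 and CA6 were below theirs on wild type array 2. CA1 and CA3 followed with a difference of 0.139, although 1664 other genes lay closer to CA1 than CA3 did. CA1, CA2, CA3 and CA4 all stood lowest on wild type array 3. CA5 and CA6 were the least alike pair of the family, with a difference of 0.455.

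Among all genes of the table, the closest patterns were found for CA1 in FC1 (AT3G53570, difference 0.019) and UCH3 (AT4G17510, 0.034). CA2 was closest to AT1G24267 (0.019) and AT1G05960 (0.022), and CA3 to HON5 (AT1G48620, 0.023) and CYP96A12 (AT4G39510, 0.049). CA4 was closest to AT4G01130 (0.024) and to PP2AA2 (AT3G25800, 0.025), and CA5 to AT1G48590 (0.036) and AT4G15610 (0.041). For CA6 they were AT3G61200 (0.043), with a log2 fold change of 0.55, and AT2G07748 (0.055), with 0.61. A difference under 0.1 was found to 18 genes for CA6 and to between 124 and 799 genes for each of the others, so that likeness over 6 arrays is shared by many genes.

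The measured genes next to each member on the chromosome were also read, a choice made after the members' values were seen. CA6 lies between AT1G58170, which had a log2 fold change of -0.02 (SE 0.31), and RLP9, which had 0.24 (SE 0.18), and the arrays overlapped for both neighbours. CA5 lies between AT4G33565 (0.06, SE 0.20) and AT4G33585 (0.02, SE 0.16), also with overlapping arrays. The arrays also overlapped for both neighbours of CA2, AT5G14730 (0.16, SE 0.28) and MYB66 (-0.17, SE 0.16), and of CA3, AT1G23720 (0.08, SE 0.23) and AOR (0.11, SE 0.18). CA4 lies between AT1G70400 (-0.03, SE 0.17, overlapping) and AT1G70420, which had all mutant arrays higher, with a change of 0.33 (SE 0.15, limma adjusted p = 0.426). CA1 lies between LSF1 (-0.19, SE 0.16, overlapping) and AT3G01490, which codes for the protein kinase CBC1 of guard cell carbon dioxide signalling. CBC1 had 6.22, 6.58 and 6.52 in atpip1;2-1 leaves and 6.07, 6.08 and 6.20 in wild type leaves. Its mutant arrays were all higher, by 0.02 at the nearest pair, with a change of 0.32 (SE 0.16, limma adjusted p = 0.473). Non-overlapping arrays were found for 18.5% of all genes.

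The other genes of carbon dioxide and bicarbonate use were read as 5 lists with 45 genes, all measured. None of the 45 passed the limma test over all genes, 4 had an unadjusted p under 0.05 and 14 had arrays that did not overlap, 11 with the mutant higher and 3 with the mutant lower. Over all genes, 0.342% passed the limma test and 12.2% had an unadjusted p under 0.05. The backgrounds of non-overlapping arrays were 9.3% of all genes with the mutant higher and 9.24% with the mutant lower. The median log2 fold change was 0.10 for the 6 beta carbonic anhydrases, where 5 of 6 means were higher, and -0.01 over all genes, where 48.4% of means were higher. The count was 3 of 6 with array weights, with quantile normalization applied again and without wild type replicate 3, and 2 of 6 without replicate 3 of both lines, where the median of the 6 was -0.02.

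The 8 alpha carbonic anhydrases, a family related to the animal enzymes, had a median change of -0.11, with 2 means higher and 6 lower. The lowest was ACA2, with 3.40, 2.70 and 2.96 in atpip1;2-1 leaves and 3.48, 3.76 and 3.81 in wild type leaves, a change of -0.66 (SE 0.21, limma adjusted p = 0.250). ACA2 lay below the median of all genes' means, and no background values show its level to be above background. ACA1, a chloroplast form, had -0.26 (SE 0.18, adjusted p = 0.601) with overlapping arrays. The other 6 had means from 1.56 to 2.50 in atpip1;2-1 leaves and from 1.61 to 2.67 in wild type leaves.

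The 5 gamma carbonic anhydrases, which are subunits of mitochondrial complex I, share the organelle of CA6. Their median change was 0.19, with 3 means higher and 2 lower, and none had an unadjusted p under 0.05. The 2 with the smallest p went opposite ways: GAMMA-CAL1 had -0.44 (SE 0.23, limma adjusted p = 0.489) and GAMMA-CA3 had 0.37 (SE 0.21, adjusted p = 0.526), both with overlapping arrays. GAMMA-CA2 (0.25, SE 0.15) and GAMMA-CAL2 (0.19, SE 0.15) had all mutant arrays above the wild type arrays, as did 9.3% of all genes.

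Rubisco, which fixes the carbon dioxide of the chloroplast, and its activase had a median of 0.21 over 6 genes, 5 of them with higher means. RBCS1B, a small subunit gene, had 10.09, 10.24 and 10.78 in atpip1;2-1 leaves and 9.63, 9.76 and 10.07 in wild type leaves, a change of 0.55 (SE 0.22, limma adjusted p = 0.350). RBCS2B had 0.53 (SE 0.26, adjusted p = 0.452), and the small subunit genes are near-identical copies whose single values are uncertain. The activase gene RCA had 0.27 (SE 0.16), with all mutant arrays higher, as in 9.3% of all genes.

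The 12 genes of enzymes that use bicarbonate had a median of -0.03, with 5 means higher and 7 lower. The smallest p was that of PPC2, a phosphoenolpyruvate carboxylase gene, with 0.29 (SE 0.15, limma adjusted p = 0.493). ACCD, the chloroplast-encoded subunit of acetyl-CoA carboxylase, followed with 0.26 (SE 0.15, adjusted p = 0.533). Together with PPC1 (0.26, SE 0.16), another phosphoenolpyruvate carboxylase gene, they were the 3 genes of the list whose mutant arrays all lay above the wild type arrays. Over all genes, 9.3% had all mutant arrays higher.

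The 14 genes of guard cell carbon dioxide signalling, in which CA1 and CA4 act upstream, had a median of 0.01, with 7 means higher and 7 lower. ALMT12, the rapid anion channel of guard cells, had 4.56, 4.27 and 4.32 in atpip1;2-1 leaves and 4.83, 4.78 and 4.86 in wild type leaves, a change of -0.44 (SE 0.16, limma adjusted p = 0.310). CRSP, a protease of the EPF2 peptide pathway, had 0.43 (SE 0.18, adjusted p = 0.382), with all mutant arrays higher, as in 9.3% of all genes. The 5 guard cell markers averaged 4.58 to 4.99 on the mutant arrays and 4.60 to 5.04 on the wild type arrays, and none had arrays that did not overlap. In whole leaves, fewer cells of a type and less RNA per cell cannot be told apart.

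**Figure D4:**
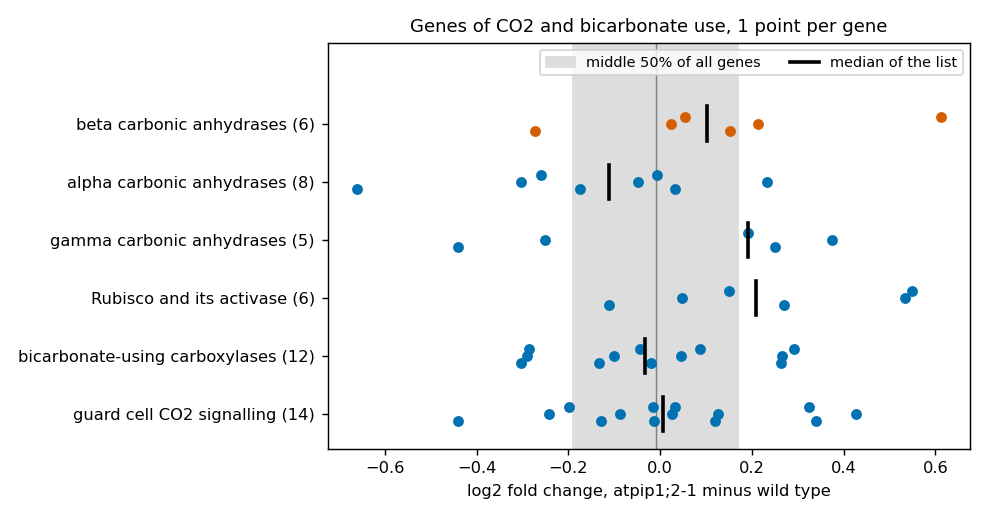
Log2 fold change, atpip1;2-1 minus wild type (horizontal axis), of each gene of the beta carbonic anhydrases (orange) and of 5 lists of carbon dioxide and bicarbonate use (blue), with the number of genes in parentheses and the median of each list as a black bar. The grey band holds the middle 50% of all genes, and CA6 at 0.61 is the highest and ACA2 at -0.66 the lowest of the points.

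Across the settings tried, CA6 kept a higher mean in the mutant in all 15 alternatives, with changes from 0.49 to 0.70, unadjusted p under 0.05 each time and adjusted p of limma's fits between 0.106 and 0.484. CA5 kept a lower mean in all 15, from -0.37 to -0.23, and CA1 a higher mean, from 0.11 to 0.32. The unadjusted p of CA5 was under 0.05 only in the fit without moderation. The signs of CA2, CA3 and CA4 changed in 4, 1 and 5 of the 15 alternatives. The filters on dim genes, the variance trend, the fit without moderation and the replicate block leave a log2 fold change as it is. Their signs were therefore fixed in advance, and only the other alternatives could turn a sign. For CA5 and CA6, whose arrays did not overlap, leaving arrays out or weighting them could not turn the sign either. For CA5 and CA6 only quantile normalization again and equal medians could have done so. None of the 6 genes passed the threshold in any alternative. Without moderation 0 of all genes passed, and without replicate 3 of both lines 2 did, so that a member could hardly have passed there. The probe-set table, the second deposited table, named none of the 6 genes in the annotation used here.

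**Figure D5:**
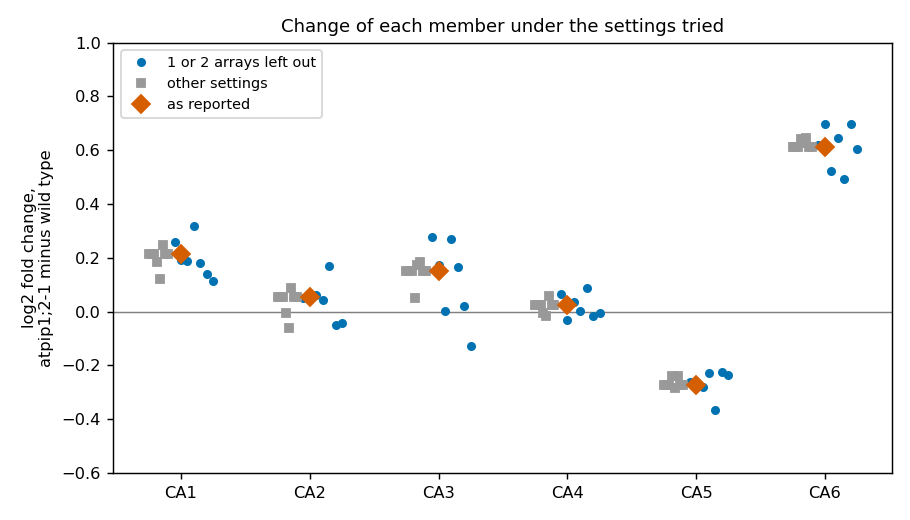
Log2 fold change of each beta carbonic anhydrase gene, atpip1;2-1 minus wild type (vertical axis), as reported (orange diamonds), with 1 or 2 arrays left out (blue) and under the other settings (grey). All points of CA6 lie between 0.49 and 0.70, those of CA5 lie below 0, and those of CA2, CA3 and CA4 fall on both sides of 0.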

How the data were processed

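Total RNA of leaves was labelled with biotin and measured on 6 Affymetrix arrays. Each deposited value is the log2 expression of an AGI code on an array; RMA and Partek are named, without versions or roles, per the submitters' processing notes. Probe annotation, genome build, scan dates and detection calls are not given in the sources, and the precision is limited by the number of arrays. The other deposited table is per probe set, taken as log2 from its range; its scale and centring are not stated. Of its 38408 probe sets, 16574 had 1 gene, which gave 16411 genes, among them 6 of the 45 genes in the 5 lists and none of the beta carbonic anhydrases.

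All 28387 genes were fitted in R 4.3.3 by lmFit and eBayes of limma 3.58.1 (two-sided, without covariates), and p-values were adjusted over all of them by Benjamini-Hochberg, with 0.05 as the threshold. Ratios of 2 members were tested with exact permutation over the 20 splits of the arrays. The genes named are all members, PIP1;2, the list members past the threshold or else the 2 with the smallest unadjusted p, and the 2 genes closest in pattern to each member; others were named after their values were seen. The members and lists were chosen with earlier results of these data known. Symbols came from RefSeq for TAIR10.1, which held 27681 of the genes. The fit was tested on simulated data. Other settings were a filter on dim genes (25% or 50%), variance trend, array weights, quantile normalization again, equal medians, no moderation, a replicate block and arrays left out.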

Additional observations from a re-analysis of the deposited data

How the results depend on the processing

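None of the 6 genes, and none of the 45 genes in the 5 lists, passed the limma threshold in any alternative that measured them. Hardly any gene of the whole table passed without moderation or without replicate 3 of both lines, as the counts below show. The sign of CA2 turned with array weights (-0.0055), with quantile normalization again (-0.059), without wild type replicate 3 (-0.049) and without replicate 3 of both lines (-0.042), an alternative chosen after seeing the data. That of CA4 turned with array weights (-0.0052), with quantile normalization again (-0.015), without mutant replicate 2 (-0.031), without wild type replicate 3 (-0.017) and without replicate 3 of both lines (-0.0054), and that of CA3 without replicate 3 of both lines (-0.13). Leaving out 1 array gave log2 fold changes of 0.14 to 0.32 for CA1, -0.049 to 0.168 for CA2, 0.0039 to 0.276 for CA3, -0.031 to 0.087 for CA4, -0.37 to -0.23 for CA5 and 0.49 to 0.70 for CA6. The cause of these turns was not tested.

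The count over all 28387 genes was 97. It was 31 in the table per probe set, where 16411 genes were tested, 196 without the dimmest 50% of genes, 375 with a variance trend and robust fitting, 0 without moderation of the spread (limma's linear fit) and 2 without replicate 3 of both lines. Leaving out 1 array gave 14 (without wild type replicate 2) to 48 (without wild type replicate 3). With the replicate number as a block it was 45. The numbers were not taken to pair the arrays, and whether they do was not tested. Same-numbered arrays deviated together with correlations over genes of 0.01, 0.05 and 0.07, and unlike-numbered arrays with correlations from -0.080 to 0.047. Under the block the limma adjusted p of CA6 was 0.213. The count of member ratios that do not overlap was 4, and 5 to 7 with 1 array left out (7 without wild type replicate 1 or 2) or without replicate 3 of both lines (7), where fewer arrays make overlap less likely.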
